A study of Mus musculus with 6 samples.

Results

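The metallothionein genes Mt1, Mt2 and Mt3 were examined in mouse brain together with Mtf1 and Slc30a1, which sense and export zinc. They were taken by gene symbol from the deposited bead array table and made up 5 of its 18138 gene symbols. Mt1, Mt2, Mt3 and Slc30a1 each had 1 probe and Mtf1 had 2, and all 6 probes passed the filter on low signals. Mt4, the remaining member of the cluster, also had 1 tested probe and is given beside them. The question addressed here was whether the members known to be inducible, Mt1 and Mt2, differed between brains with and without an active human SRY transgene, and whether they did so apart from Mt3, the member known for its steady expression in brain.

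Metallothioneins are small cysteine-rich proteins that bind zinc and copper ions in the cytoplasm. Transcription of Mt1 and Mt2 is known to rise when free zinc activates the factor MTF1, which binds metal response elements in their promoters, and also with glucocorticoids, with cytokines acting through STAT3 and with oxidative stress. In the brain both are known chiefly from astrocytes, choroid plexus and meninges, whereas Mt3, first described as a growth inhibitory factor for neurons, is made in neurons and astrocytes and responds little to metals.

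RNA of whole brain was hybridized to Illumina bead arrays of the type MouseRef-8 v2.0, on which each probe is read by many beads. There were 3 arrays from hSRY-OFF and 3 from hSRY-ON animals, all male mice at postnatal day 6, labelled FVB (FVB/N in the methods). All animals carried a single copy of a human SRY-IRES-EGFP cassette, inserted on chromosome 11 at H11 and kept silent in hSRY-OFF by a DsRed2 cassette between loxP sites. In hSRY-ON this block had been removed in the early embryo by Cre from Ddx4-Cre mothers, which put SRY under the broadly active CAG promoter in essentially all cells, and the hSRY-ON animals chosen did not themselves carry Ddx4-Cre. The arrays are described as biological triplicates, so p-values measure the spread between animals. The probes are designed to mouse genes, so the human transgene was not checked on them. Of 10 neuronal markers, 7 were tested, among them Stmn2 and Syt1, which were bright on all arrays, while the probes of Snap25 and Nefl did not pass the filter on low signals. In bulk tissue, fewer cells of a type and less RNA per cell cannot be told apart.

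The array medians of the probe signals lay between 200.25 and 219.76, and 13816 to 14377 of the 25697 probes were detected on an array. Of the 14215 tested probes, 308 (2.17%) were called at a limma adjusted p under 0.05, 120 (0.844%) higher and 188 (1.32%) lower in hSRY-ON. An unadjusted p under 0.05 was reached by 2978 probes (20.9%), and the 3 values of one group lay wholly above or below those of the other for 3941 probes (27.7%). The number of calls rested on single arrays, since it was 417 without hSRY-ON array 3 and 0 or 1 when any other array was left out.

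The bases around the annotated starts of the 3 brain metallothioneins are shown first. Metal response elements are known to control the inducible members, though not all of them need lie in this stretch. Each sequence runs from 130 bases before to 30 bases after the annotated start, on the plus strand of chromosome 8 in RefSeq's GRCm38.p6, and the capitals mark matches to the core of the metal response element (TGCACNC or TGCGCNC, read on both strands). Mt1 lies at chr8:94178959-94179118, Mt2 at chr8:94172488-94172647 and Mt3 at chr8:94152477-94152636.
Mt1: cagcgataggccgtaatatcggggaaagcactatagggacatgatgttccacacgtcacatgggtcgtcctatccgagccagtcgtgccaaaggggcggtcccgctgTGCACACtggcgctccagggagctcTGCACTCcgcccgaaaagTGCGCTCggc
Mt2: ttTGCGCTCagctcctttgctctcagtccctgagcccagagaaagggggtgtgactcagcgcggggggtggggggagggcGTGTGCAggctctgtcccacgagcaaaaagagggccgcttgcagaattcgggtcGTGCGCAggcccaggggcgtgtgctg
Mt3: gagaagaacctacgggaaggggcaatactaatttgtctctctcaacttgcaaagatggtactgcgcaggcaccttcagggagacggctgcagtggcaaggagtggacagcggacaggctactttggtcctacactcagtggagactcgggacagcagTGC

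In the whole windows of 250 bases before and 50 after the start, Mt1 held 3 matches, at -23 to -17, 3 to 9 and 21 to 27. Mt2 held 4 matches, of which the one farthest from the start, at -223 to -217, lies outside the printed stretch. Mt3 held 1, at 28 to 34, which begins with the last 3 printed bases. The zinc exporter gene Slc30a1 held 2 matches, Mt4 held 1 and Mtf1 held 0. Among 32851 promoter windows of the same length, 25.7% held at least 1 match, 7.11% at least 2, 1.97% at least 3 and 0.517% at least 4. A core of the antioxidant response element (TGACNNNGC on both strands) was matched once in Mt2, at -79 to -71, and once in Slc30a1, at -82 to -74, as in 12.4% of all windows, and no match to it was present in the windows of Mt1, Mt3, Mt4 and Mtf1. These matches describe the letters only and were not tested as binding sites. The windows follow the annotated starts, which were not checked, and bases beyond them were not searched. The counts are therefore not those of whole promoters, and an element missing from a window may lie outside it.

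**Figure D1:**
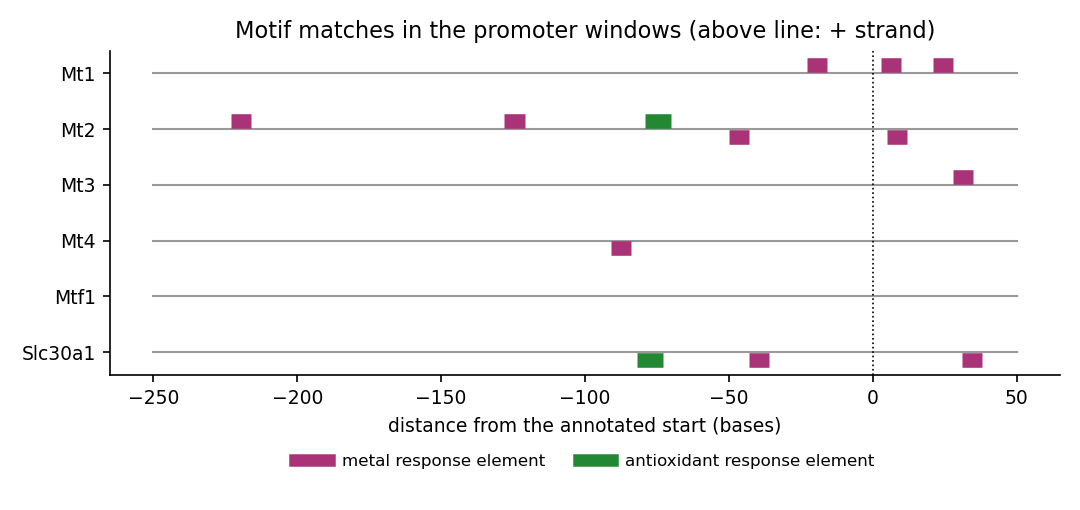
Positions of motif matches (horizontal axis, bases from the annotated start) in the promoter windows of 6 genes, with plus-strand matches above each line and minus-strand matches below. Mt1 and Mt2 hold 3 and 4 metal response element matches, Mt3 and Mt4 hold 1 each, Slc30a1 holds 2 and Mtf1 holds 0.

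Both inducible metallothioneins were higher in hSRY-ON brains, by 1.68-fold for Mt1 and 1.78-fold for Mt2, and Mt3 did not pass the test. Thus 2 of the 5 genes were called, both upward, where 0.844% of all tested probes were called upward. The signals of these 2 genes also did not overlap between the groups, a separation that 27.7% of the tested probes showed in either direction. Mtf1 and Slc30a1 did not pass the test.

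Mt1 encodes an inducible metallothionein found in most tissues. Its deposited signals were 15274, 14225 and 13270 in hSRY-OFF and 25825, 22423 and 22201 in hSRY-ON. Every hSRY-ON array was thus brighter than every hSRY-OFF array, and the lowest hSRY-ON signal was well above the highest hSRY-OFF signal. Within each array the probe ranked 200th, 188th and 210th by signal in hSRY-OFF and 48th, 60th and 63rd in hSRY-ON, a shift that does not rest on any scaling between arrays. After background correction and quantile normalization the log2 signals were 13.77, 13.81 and 13.72 in hSRY-OFF and 14.62, 14.47 and 14.44 in hSRY-ON. The mean rose from 13.77 ± 0.04 to 14.51 ± 0.10 (SD, n = 3 each), a log2 fold change of 0.75 with SE 0.083 and a 95% interval of 0.55 to 0.94 (limma adjusted p = 0.0243). The separation between the groups was larger than the spread within either.

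Among the 120 probes called higher, Mt1 was the one with the highest mean signal and ranked 37th by log2 fold change. The 199 tested probes with a higher mean than Mt1 in hSRY-OFF included 0 calls by limma, with 11 at an unadjusted p under 0.05 and log2 fold changes from -0.47 to 0.368. The change of Mt1 therefore lay outside the range seen in all brighter probes.

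**Figure D2:**
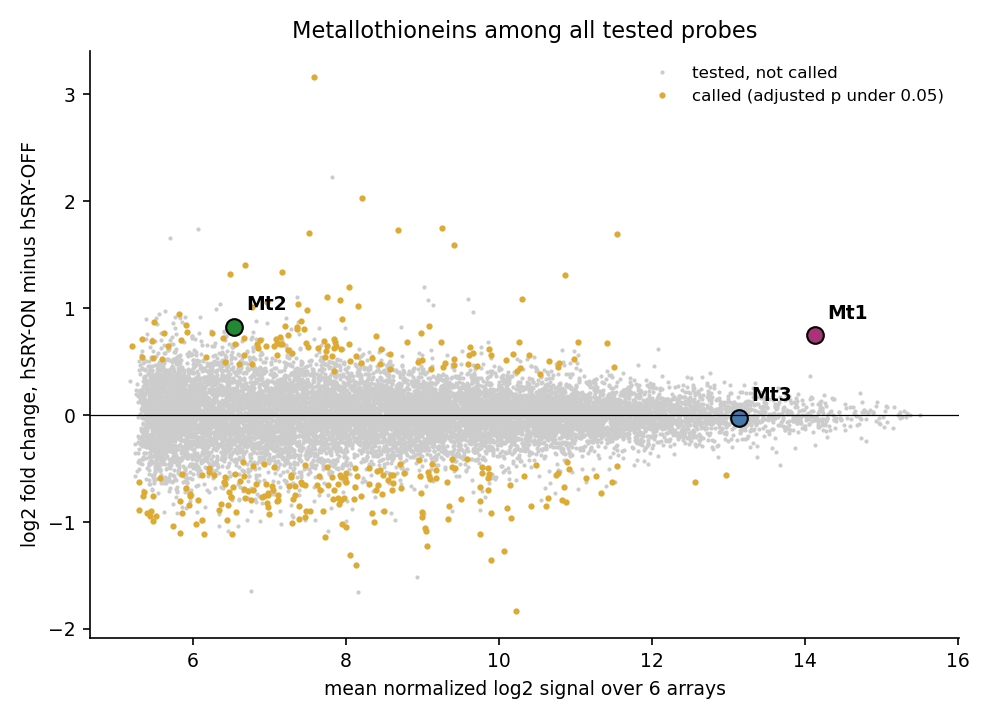
Log2 fold change of hSRY-ON over hSRY-OFF (vertical axis) against the mean normalized log2 signal over 6 arrays (horizontal axis), one point per tested probe, with called probes in yellow. Mt1 stands alone among the bright probes at 0.75, Mt2 lies among the dim called probes at 0.83 and Mt3 lies near 0 at -0.03.

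Mt2, the usual partner of Mt1 in induction, was read by a dim probe. Its deposited signals were 243.52, 220.27 and 208.53 in hSRY-OFF and 273.11, 265.62 and 273.94 in hSRY-ON. The probe was detected on all 6 arrays, with detection p-values of 0, 0.002506 and 0.01128 in hSRY-OFF and 0 on each hSRY-ON array. The hSRY-ON signals were all above the hSRY-OFF ones and close to each other, while the arrays reached a detection p of 0.05 near signals of 183.36 to 202.82. Normalized log2 signals were 6.27, 6.16 and 5.95 in hSRY-OFF against 6.91, 6.97 and 7.0 in hSRY-ON. The mean rose from 6.13 ± 0.16 to 6.96 ± 0.05 (SD, n = 3 each), a log2 fold change of 0.83 with SE 0.10 and a 95% interval of 0.59 to 1.07 (limma adjusted p = 0.0263). The size of this change depended on the background correction, since the ratio of the deposited mean signals was 1.21 and the log2 fold change without correction was 0.32.

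Neither call was free of single arrays. Leaving out hSRY-ON array 3 kept both calls, with log2 fold changes of 0.78 for Mt1 (limma adjusted p = 0.0243) and 0.81 for Mt2 (limma adjusted p = 0.0324). Leaving out any other array ended both, with Mt1 between 0.69 and 0.77 (limma adjusted p = 0.0614 to 0.109) and Mt2 between 0.74 and 0.90 (limma adjusted p = 0.0692 to 0.109). The highest unadjusted limma p among these fits was 0.000306 for Mt1 and 0.000447 for Mt2.

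Mt3, the brain-enriched metallothionein, was bright on all arrays. Its deposited signals were 9758.6, 9436.7 and 9376.6 in hSRY-OFF and 9022.9, 8240.1 and 9529.4 in hSRY-ON. The hSRY-ON arrays spanned a wider range, with 2 of them below all hSRY-OFF arrays and 1 among them. Normalized log2 signals were 13.08, 13.19 and 13.20 in hSRY-OFF and 13.10, 13.07 and 13.22 in hSRY-ON, so the groups overlapped. The log2 fold change was -0.03 with SE 0.084 (limma adjusted p = 0.896), and its 95% interval of -0.22 to 0.17 did not reach the lower bounds of the intervals of Mt1 and Mt2.

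The test of inducible against constitutive members compared the per-array differences of log2 signals. Mt1 minus Mt3 was 0.69, 0.62 and 0.52 in hSRY-OFF and 1.53, 1.40 and 1.22 in hSRY-ON, and Mt2 minus Mt3 was -6.80, -7.03 and -7.25 in hSRY-OFF and -6.19, -6.11 and -6.22 in hSRY-ON. Both differences were higher on every hSRY-ON array, by 0.77 for Mt1 and 0.85 for Mt2, the latter becoming 0.34 without background correction and 0.53 with normexp on the signals and an offset of 50. The exact permutation test (two-sided) gave p = 0.1 for each of the 2 pairs, also after Benjamini-Hochberg adjustment, which is the smallest p that 3 against 3 arrays allow. When the same differences were entered in the limma fit over all probes, the adjusted p was 0.0260 for Mt1 minus Mt3 (SE 0.10) and 0.0306 for Mt2 minus Mt3 (SE 0.12). With the replicate number as a block, the limma adjusted p was 0.0970 and 0.0972, so neither passed. This fit of the differences was not repeated with single arrays left out. Only the change between groups is compared here, since the brightness of different probes does not give the relative abundance of their transcripts.

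**Figure D3:**
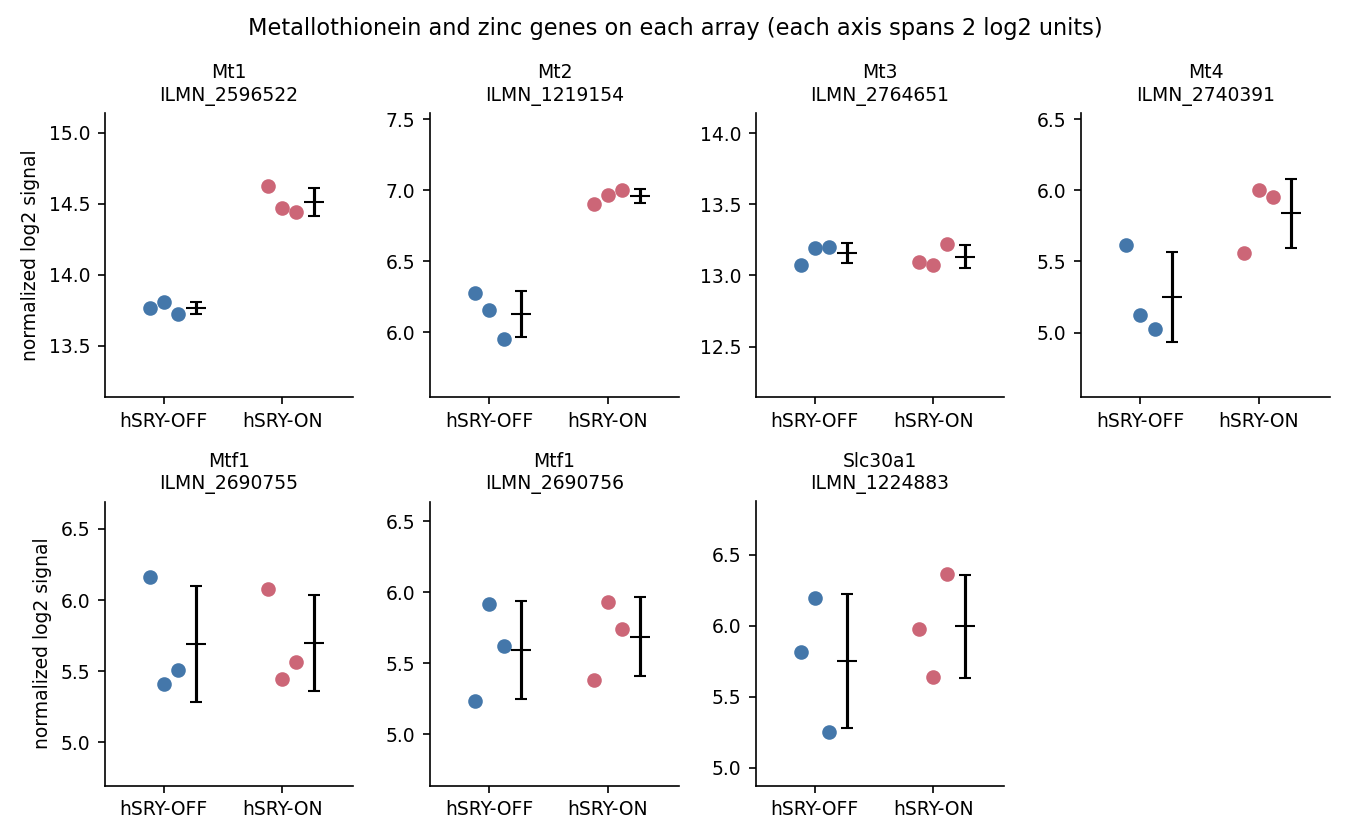
Normalized log2 signal (vertical axes, each spanning 2 units) of every probe on the 3 hSRY-OFF and 3 hSRY-ON arrays, with the mean ± SD beside the points. The groups separate for Mt1 and Mt2 and overlap for Mt3, Mt4, both Mtf1 probes and Slc30a1.

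Mt4, known from stratified epithelia, was near background. Its normalized log2 signals were 5.61, 5.12 and 5.02 in hSRY-OFF and 5.56, 6.01 and 5.95 in hSRY-ON, and it was detected on 1 hSRY-OFF and 3 hSRY-ON arrays. One hSRY-OFF array lay above the lowest hSRY-ON array, so the groups overlapped, and the log2 fold change of 0.59 with SE 0.19 did not pass (limma adjusted p = 0.144).

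The transcription factor gene Mtf1 was read by 2 dim probes. Probe ILMN_2690755 gave normalized log2 signals of 6.16, 5.41 and 5.51 in hSRY-OFF and 6.08, 5.44 and 5.56 in hSRY-ON, and was detected on 1 hSRY-OFF and 3 hSRY-ON arrays. Probe ILMN_2690756 gave 5.24, 5.92 and 5.62 in hSRY-OFF and 5.39, 5.93 and 5.74 in hSRY-ON, and was detected on 2 arrays of each group. The groups overlapped at both probes, and the array-to-array spread exceeded the difference of the means. The log2 fold changes were 0.0035 with a 95% interval of -0.56 to 0.57 (limma adjusted p = 0.997) and 0.09 with an interval of -0.39 to 0.57 (limma adjusted p = 0.836). The value of Mt1 was outside both intervals. Signals this near background cannot exclude a change of that size in the transcript. The probes deviated in opposite ways on the arrays, and their mean gave a log2 fold change of 0.05 with SE 0.078 (limma adjusted p = 0.767).

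Slc30a1, the plasma membrane zinc exporter ZnT1 and a known target of MTF1, gave normalized log2 signals of 5.81, 6.19 and 5.25 in hSRY-OFF and 5.97, 5.64 and 6.37 in hSRY-ON. It was detected on 2 hSRY-OFF and 3 hSRY-ON arrays, and the groups overlapped. The log2 fold change was 0.24 with SE 0.27 (limma adjusted p = 0.655). Its 95% interval, -0.39 to 0.87, held 0 as well as the value of Mt1.

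Over the 6 arrays the normalized signals of Mt1 and Mt2 correlated with r = 0.96, and with the group means removed the value was -0.011, so the likeness lay in the difference between the groups. Mt1 and Mt3 gave -0.257 (-0.373 with group means removed) and Mt2 and Mt3 gave -0.277 (-0.361). These values describe 6 arrays that share their normalization. The 5 probes of other genes most like Mt1 in Pearson r were those of Pabpn1 (0.9988), Jarid1b (0.9973), Gm347 (0.9964), Inpp5k (0.994) and Myo5a (0.9934). Of them Jarid1b, a histone demethylase also named Kdm5b, Inpp5k and Myo5a were themselves called higher, with log2 fold changes of 0.42, 0.63 and 0.62. Those most like Mt2 were Arl4a (0.9934), Emb (0.9916), C030048B08Rik (0.9908), Ttc3 (0.9904) and Prf1 (0.9895), of which Arl4a and Emb were called higher, at 0.45 and 0.63. Those most like Mt3 were Eftud2 (0.9987), Hnrnpk (0.9941), Golga7 (0.9881), Ndufb2 (0.9864) and Nola1 (0.9754), and 0 of them were called. Over all tested probes 2.17% were called. Because the probes were picked with the group difference included, the calls among them, or their absence, follow largely from the pick.

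The other zinc genes did not move together. Over one probe for each of the 10548 tested symbols, the median log2 fold change was 4e-04 and 2.39% were called. Of 10 zinc exporter genes of the Slc30a family, 7 were tested, with 4 above and 3 below 0, a median of 0.03 and 1 call. The call was Slc30a3, the vesicular transporter ZnT3 that loads zinc into synaptic vesicles of glutamatergic neurons. Its normalized log2 signals were 6.91, 7.04 and 7.28 in hSRY-OFF and 6.19, 6.48 and 6.43 in hSRY-ON, with every hSRY-ON array below every hSRY-OFF array. The mean fell from 7.08 ± 0.19 to 6.37 ± 0.16 (SD, n = 3 each), a log2 fold change of -0.71 with SE 0.13 (limma adjusted p = 0.0462). This call lay just inside the threshold and 0 exporters were called when any single array was left out. Slc17a7, the vesicular glutamate transporter of neurons of that kind, stood at -0.63 (limma adjusted p = 0.0595), and the summed linear signal of these 2 genes was 3431.7 to 4013.6 in hSRY-OFF and 2104 to 2848.1 in hSRY-ON. The part of such neurons in the value of Slc30a3 was not tested. The 7 tested general neuronal markers had 0 calls by limma, 0 at an unadjusted p under 0.05, and summed to 78671 to 85832 in hSRY-OFF and 80999 to 85389 in hSRY-ON.

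Of 14 zinc importer genes of the Slc39a family, 10 were tested, with 3 above and 7 below 0, a median of -0.09 and 0 calls by limma, and 2 of them had an unadjusted p under 0.05. Slc39a8, the plasma membrane importer ZIP8, gave 6.89, 7.07 and 7.16 in hSRY-OFF and 6.10, 6.47 and 6.69 in hSRY-ON, which did not overlap, and its log2 fold change of -0.62 did not pass (limma adjusted p = 0.0895). Slc39a5 gave 5.40, 4.90 and 5.31 against 5.93, 5.71 and 5.59, also without overlap, and its log2 fold change was 0.54 (limma adjusted p = 0.116). Its hSRY-OFF values lay near background, so it passed the filter chiefly through the hSRY-ON arrays. The lack of overlap is therefore partly set by the filter. Of 7 genes linked to MTF1 beside the metallothioneins, a list that held Mtf1 itself, 6 were tested and 0 were called by limma. Among them 1 had an unadjusted p under 0.05, and the median was -0.01. The list was not split by the direction in which MTF1 acts. The largest value was that of Ndrg1, a gene induced by hypoxia and metals, at 0.43 (limma adjusted p = 0.105), followed by Slc30a1. The probes of Slc30a1, Slc39a10 and Mtf1, with hSRY-OFF means of 5.75, 5.62 and 5.69, lay near background, which limits what this list can show. Of 10 copper handling genes, 8 were tested, 0 were called by limma, 2 had an unadjusted p under 0.05, and the median was 0.02. Cp, the copper-carrying ferroxidase ceruloplasmin, stood at 0.45 (limma adjusted p = 0.0734) and Cox17, a copper chaperone of mitochondria, at -0.22 (limma adjusted p = 0.161).

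**Figure D4:**
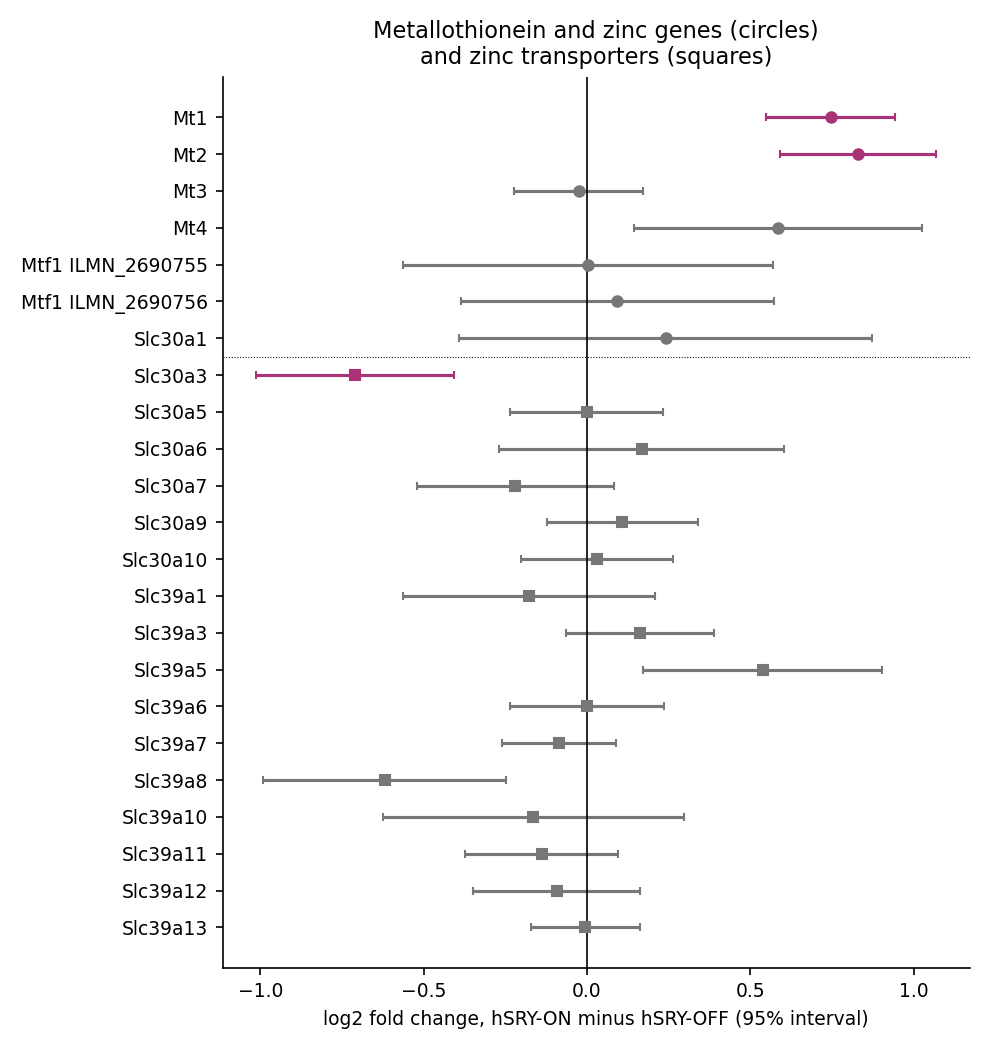
Log2 fold changes of hSRY-ON over hSRY-OFF with 95% intervals (horizontal axis) for the metallothionein and zinc genes (circles) and the other tested zinc transporters (squares), with called probes in purple. Mt1 and Mt2 lie to the right at 0.75 and 0.83, Slc30a3 lies to the left at -0.71, and the other genes were not called.

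The genes that read the known inducers of Mt1 and Mt2 differed among themselves. Of 16 genes known to respond to glucocorticoids, 13 were tested, and all 13 had a value above 0, their median being 0.30, with 3 calls, all higher. Fkbp5, a chaperone partner of the glucocorticoid receptor, gave 8.46, 8.71 and 8.62 in hSRY-OFF and 9.55, 9.34 and 9.22 in hSRY-ON, a log2 fold change of 0.77 with SE 0.11 (limma adjusted p = 0.0325). Sult1a1, a sulfotransferase, rose by 1.73 (limma adjusted p = 0.0054) and Fam107a, an actin-bundling factor, by 2.03 (limma adjusted p = 0.0263), both with no overlap. Without hSRY-ON array 3 there were 4 calls among these genes, and 0 or 1 when any other array was left out.

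Of 13 genes that respond to STAT3 or mark the acute phase, 8 were tested, with 5 above and 3 below 0, and the only call was Gfap, an intermediate filament of astrocytes, at -0.83 (limma adjusted p = 0.0308). Lcn2, an iron-siderophore binding protein, had the largest value at 1.66 and did not pass (limma adjusted p = 0.112). Its hSRY-ON array 3 stood at 7.74 and the other hSRY-ON arrays at 6.06 and 5.82. Its hSRY-OFF values of 4.76, 5.14 and 4.74 were at background. The probe thus passed the filter only through the hSRY-ON arrays, and the size of its value is not exact. Of 12 genes of the NRF2 antioxidant response, 10 were tested, with 5 above and 5 below 0, a median of 0.0069 and 1 call. That call was Gstm1, a glutathione transferase, at 0.56 (limma adjusted p = 0.0348), while Slc7a11, the cystine transporter, stood at -0.33 (limma adjusted p = 0.125).

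Markers of the cells in which Mt1 and Mt2 are known to be made were read beside them. Of 12 astrocyte markers 10 were tested, with 4 above and 6 below 0, a median of -0.13 and 2 calls, both lower. They were Gfap and the water channel gene Aqp4, which gave 11.36, 11.37 and 11.15 in hSRY-OFF and 10.38, 10.66 and 10.41 in hSRY-ON, a log2 fold change of -0.81 (limma adjusted p = 0.0275). Their summed linear signal was 46705 to 46719 in hSRY-OFF and 44311 to 49971 in hSRY-ON, and was carried mostly by the bright probes of Slc1a3, Gja1 and Aldoc. The mean log2 signal over the 10 markers, which weights them equally, was 10.68, 10.78 and 10.76 in hSRY-OFF and 10.50, 10.55 and 10.47 in hSRY-ON, lower on every hSRY-ON array, whereas the sums overlapped. All 6 choroid plexus markers were above 0, with a median of 0.41 and 1 call, the water channel gene Aqp1 at 0.67 (limma adjusted p = 0.0348). Their sum was 15174 to 18198 in hSRY-OFF and 18674 to 23302 in hSRY-ON, without overlap, and was carried mostly by Ttr, which did not pass the test (log2 fold change 0.37, limma adjusted p = 0.144). Their mean log2 signal, 8.52, 8.72 and 8.59 in hSRY-OFF and 9.13, 9.16 and 8.91 in hSRY-ON, did not overlap either, and the part of these cells in the values of Mt1 and Mt2 was not tested. All 5 tested meningeal markers were below 0, with a median of -0.54, 0 calls by limma and 3 at an unadjusted p under 0.05, and their sum was 20595 to 21702 in hSRY-OFF and 17898 to 20324 in hSRY-ON.

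Other cell types were read in the same way. Endothelial markers summed to 7030.7 to 7476.6 in hSRY-OFF and 5567.7 to 6246.4 in hSRY-ON, a sum to which the bright probe of Cldn5 gave the largest part. Of the 6 tested, 2 were above and 4 below 0, with 0 called by limma and 4 at an unadjusted p under 0.05, of which Flt1 was higher, at 0.49, and the other 3 lower. The 6 oligodendrocyte markers were all below 0, with a median of -0.57 and 1 call, the myelin gene Mobp, and summed to 22849 to 29413 in hSRY-OFF and 17192 to 17790 in hSRY-ON. The 6 microglial markers had 0 calls by limma, 1 (the complement gene C1qb) at an unadjusted p under 0.05, and a median of 0.09. Their sums, to which C1qb gave the largest part, were 1795.8 to 2079.6 in hSRY-OFF and 2200.8 to 2392.9 in hSRY-ON, while their mean log2 signals, 7.97, 8.20 and 8.12 against 8.20, 8.31 and 8.17, overlapped. The 3 tested erythroid markers had 0 calls by limma and 0 at an unadjusted p under 0.05, with sums of 32484 to 36940 and 29080 to 36357. Of 3 liver markers, read because Mt1 is abundant in liver, Alb and Afp did not pass the filter on low signals, and Apoa1, an apolipoprotein, rose by 1.08 with SE 0.10 (limma adjusted p = 0.0225). The part of these cells in the values of Mt1 and Mt2 was not tested. When any array other than hSRY-ON array 3 was left out, 0 genes were called in the astrocyte, choroid plexus, oligodendrocyte, liver, STAT3, NRF2 and exporter lists. Without hSRY-ON array 3 there were 3 calls among astrocyte markers, 3 among meningeal markers, 1 each among choroid plexus, endothelial, oligodendrocyte and liver markers and STAT3 genes, and 0 among NRF2 genes and exporters.

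**Figure D5:**
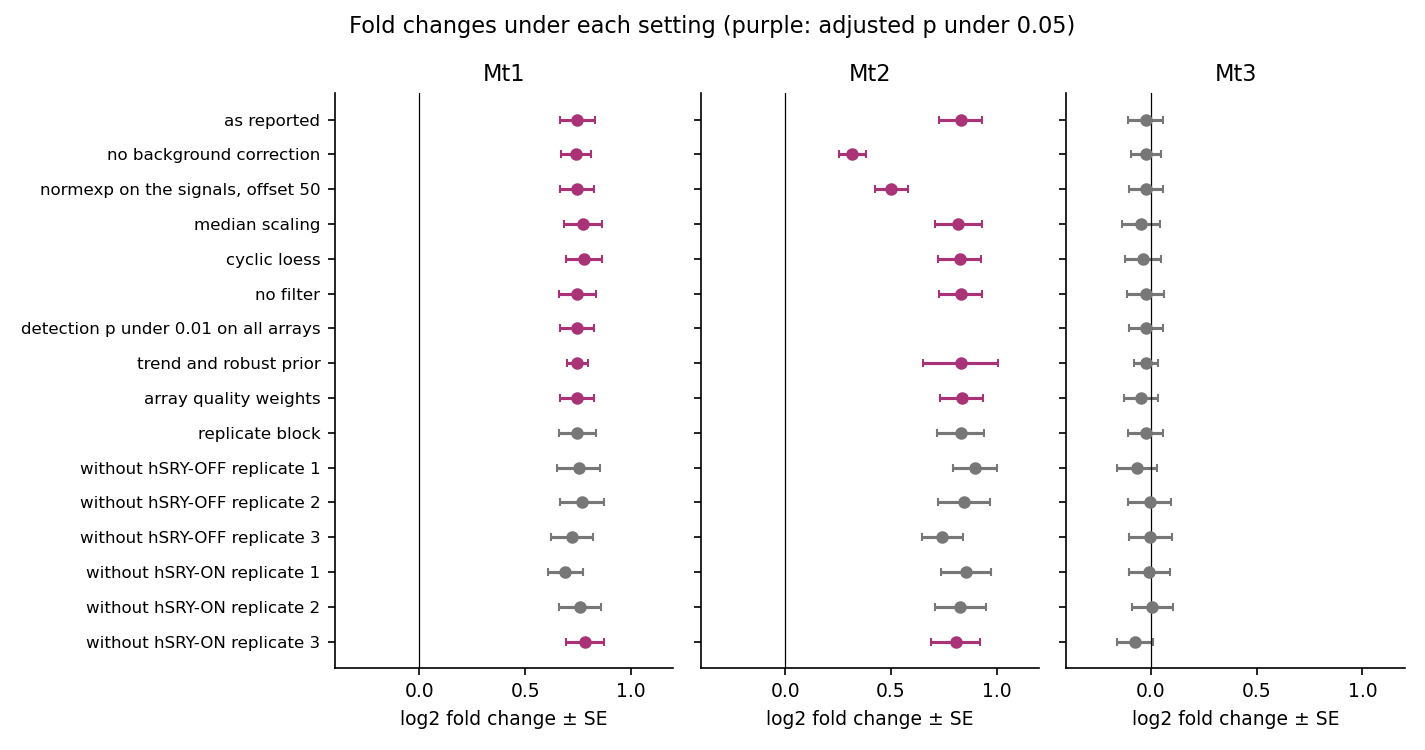
Log2 fold changes ± SE (horizontal axes) of Mt1, Mt2 and Mt3 as reported and under each alternative setting, with an adjusted p under 0.05 in purple. Mt1 stays between 0.69 and 0.78, Mt2 drops to 0.32 without background correction, and Mt3 stays between -0.07 and 0.0049.

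Across the alternatives Mt1 varied between 0.69 and 0.78 and was called in 9 of 15, with limma adjusted p from 3.07e-10 to 0.109. Mt2 varied between 0.32 and 0.90 and was called in 8 of the 14 in which it was tested, with limma adjusted p from 0.00367 to 0.109. Mt3 was called in 0 of 15, with limma adjusted p from 0.651 to 0.994.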

How the data were processed

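The authors deposited linear bead signal intensities by probe and array, each with a detection p-value, and stated no background correction. The methods name the R package TCC without settings, and the submitters' processing notes name limma. Arrays were grouped by the genotype in their labels.

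Intensities were corrected in limma 3.58.1 (R 4.3.3) with normexp, using the negative control mean and SD inferred from the detection p-values and an offset of 16, quantile normalized and put on the log2 scale. This widens the spread of dim probes. A probe was tested if its detection p-value lay under 0.05 in 3 or more of 6 arrays, using lmFit and eBayes (two-sided), with group as the only term and Benjamini-Hochberg adjustment over all tested probes. Calls are at an adjusted p under 0.05. The number of arrays, 3 per group, limits the precision, as does signal over background for dim probes, and the steps were tested on simulated data. Paired differences between members used the exact permutation test over 20 assignments. For lists, the probe with the highest mean was used for each symbol. All called members and the 2 with the largest absolute log2 fold change are named for gene lists, and for cell type markers the called ones, with the 5 probes most correlated with each metallothionein. Other markers named were chosen after their values were seen. Summed levels are of normalized linear signals over the tested members of a list. Members and lists were chosen with earlier results of these data known. Alternatives were other background corrections, normalizations, filters, priors and weights, a replicate block and leaving out each array. Promoter sequences came from RefSeq (GRCm38.p6). Probe sequences and proteins were not used here, so cross-hybridization between metallothioneins was not examined. Plots were made in Python 3.11.15 (matplotlib 3.10.9).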

Additional observations from a re-analysis of the deposited data

How the results depend on the processing

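Over all tested probes, the 308 calls became 1317 without background correction, 860 with normexp on the signals and an offset of 50 in place of 16, 123 without the filter on low signals, 705 with a detection p under 0.01 on all arrays, 1447 with a trended and robust prior, 480 with array quality weights, and 0 to 417 when 1 array was left out (0 without hSRY-OFF 1, hSRY-OFF 3 or hSRY-ON 2, 1 without hSRY-OFF 2 or hSRY-ON 1, 417 without hSRY-ON 3). With the replicate number as a block there were 0 calls by limma, with 2906 at an unadjusted p under 0.05. Deviations of same-numbered arrays correlated at 0.04, 0.029 and 0.025 and those of other pairs at -0.023 to -0.005. Every array thus correlated best with its own number, a hint at values too low over all probes to treat the numbers as a pairing. Both Mtf1 probes did follow the number, and the block lowered their SE from 0.24 and 0.20 to 0.083 each. With the replicate block, Mt1 at 0.75 (limma adjusted p = 0.0986) and Mt2 at 0.83 (limma adjusted p = 0.0989) lost their calls, and the limma adjusted p of the differences from Mt3 was 0.0970 and 0.0972. Leaving out 1 array gave 0.69 to 0.78 for Mt1, 0.74 to 0.90 for Mt2 and -0.074 to 0.0049 for Mt3, which turned only without hSRY-ON 2. The differences of 0.77 and 0.85 from Mt3 passed in the limma fit and could not pass the exact permutation test.

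Directions turned at the dim probes. Mtf1 at ILMN_2690755 was -0.00056 without background correction, -0.0060 with median scaling, -0.017 with cyclic loess and -0.19 to 0.23 when 1 array was left out. Mtf1 at ILMN_2690756 ran from -0.083 to 0.26 and Slc30a1 from -0.0093 to 0.46 when 1 array was left out. Signal over background limits these genes and the size of the change of Mt2.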

Other observations

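On the deposited linear scale, Mt1 showed the largest rise in mean signal of all tested probes, at 14256 ± 1002 in hSRY-OFF and 23483 ± 2031 in hSRY-ON (SD, n = 3 each), a gain of 9227 units. The next was Ttr, the transthyretin gene of the choroid plexus, with a gain of 4503.8 and a log2 fold change of 0.37 that did not pass (limma adjusted p = 0.144). Bead signal depends on the probe, so these gains do not compare transcript numbers.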
